A study of Bos taurus with 14 samples.

Results

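The heat shock protein and DNAJ co-chaperone genes were examined in the back muscle longissimus dorsi of 14 female cattle whose dams had been fed differently in later gestation. The genes were chosen by symbol: every row with at least 1 read whose name began with HSPA, HSPB, HSPD, HSPE, HSPH or HSP90, or with DNAJA, DNAJB or DNAJC, followed by a number where the name has one. This gave 69 of the 18078 gene rows of the table, 27 HSP and 42 DNAJ rows, carrying 68 symbols because HSPD1 stood on 2 rows. Of these, 63 had enough reads to be tested. The 7 restricted animals came from dams fed below their requirement from day 158 of gestation until birth. The labels do not agree on the level, which is 70% in the text on the series and 50% in the treatment protocol, so no percentage is used here. The 7 control animals came from dams fed 100% over the same time. All calves were managed alike, had feed ad libitum from postnatal day 301 and were sampled at slaughter on postnatal day 485. Whether any animals had a parent in common is not stated, so p-values measure the spread between these 14 samples.

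Heat shock proteins are chaperones, which keep other proteins folded or help to refold or degrade them. HSP70 proteins (HSPA) bind and release unfolded stretches in a cycle driven by ATP, DNAJ proteins bring them their clients and start ATP hydrolysis, and HSPH1 and HSPA4 exchange the nucleotide. HSP90 proteins act late in the folding of kinases, receptors and myosin, HSPD1 and HSPE1 form the folding chamber of mitochondria, and small heat shock proteins (HSPB) hold unfolding proteins without ATP, several of them at the Z-disc of muscle. Some of the genes are switched on by the heat shock factor HSF1 under heat, exercise or other protein stress, while others are made at all times. The 69 rows were sorted on this textbook knowledge into 7 stress-inducible, 7 constitutive cytosolic, 6 muscle small heat shock, 10 mitochondrial, 13 endoplasmic reticulum and 26 other rows.

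Depth was 14753204 to 17325779 counts per animal in the restricted group and 13631018 to 16976248 in the control group. Markers of skeletal muscle fibres summed to 154687 to 184489 CPM (counts scaled to the size of the library) in restricted animals and to 133350 to 175978 CPM in controls, and T cell markers were near 0. The T cell sum was 1.93 to 7.03 CPM in restricted animals and 1.47 to 5.28 CPM in controls. Other cell types differed widely between animals. Adipocyte markers summed to 36.5 to 190 CPM in restricted animals and 12.8 to 164 CPM in controls. Fibroblast markers summed to 447 to 1136 CPM and 382 to 980 CPM. Their part in the spread and correlations of the members was not tested. On the first 2 principal components restricted 4, restricted 7 and control 7 lay farthest out. The counts of calls and the medians are also given without them.

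The members took 0.719% to 0.871% of all counts in restricted animals, with a median of 0.799%, and 0.731% to 0.893% in controls, with a median of 0.766%. The groups overlapped almost fully. Most of these reads came from a few genes: HSPA8, HSPB6, HSP90AA1, HSPB8 and HSPA1A together held 54.2% to 57.4% of the members' counts in restricted animals and 54.5% to 57.6% in controls. By class, the 6 muscle small heat shock genes held 30.5% of the summed mean CPM of the members, the 7 constitutive genes 25.7% and the 7 stress-inducible genes 22.1%. The mitochondrial, endoplasmic reticulum and other classes held 8.45%, 5.07% and 8.10%.

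Levels of different genes are compared here as mean CPM over the 14 animals per kilobase of the gene length in the table. On this scale HSPB6, a small heat shock protein of striated and smooth muscle, stood first at 622 CPM per kb. HSPA8, the HSP70 of every cell, followed at 515, and HSPB8, which works with BAG3 in the removal of damaged Z-disc proteins, at 458. HSPB1 at 252 and the inducible HSP70 gene HSPA1A at 248 came next. The 2 cytosolic HSP90 genes, the constitutive HSP90AB1 and the stress-inducible HSP90AA1, stood side by side at 152 and 150.01 CPM per kb. Before division by length their mean CPM was 393 and 905, so this closeness rests on the gene lengths given. Whether those lengths match the transcripts made in muscle was not tested. HSPB7 at 126, the mitochondrial HSP70 HSPA9 at 102 and the mitochondrial co-chaperonin HSPE1 at 83.5 closed the first 10. Inducible, constitutive and muscle genes were interleaved in this order.

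The comparison between diets asked whether these genes differed in grown offspring with the dam's diet. In the quasi-likelihood test of edgeR, adjusted by Benjamini-Hochberg over the 12187 genes tested, 0 of the 63 tested members passed the threshold of 0.05, against 0.00% of all genes. At an unadjusted p under 0.05 there was 1 member, DNAJC11, against 4.25% of all genes (518). It was higher in restricted animals, where 2.17% of all genes were higher at that p, and 0 members were lower, against 2.08% of all genes. DESeq2 and limma voom also passed 0 members. The CPM of restricted and control animals overlapped for each of the 63 members, while 0.0574% of all genes had groups that did not overlap. The 95% interval of the ratio lay within 1.5-fold in both directions for 56 of the 63 members (88.9%). This share was 77.8% over all genes and 96.5% over the genes above 100 CPM. The median of the mean CPM was 33.3 over the tested members and 12.1 over all genes tested. The members for which a 1.5-fold difference was inside the interval were HSPA6, DNAJA4, HSPB7, DNAJC25, DNAJB14, DNAJC15 and HSPA1L.

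**Figure D1:**
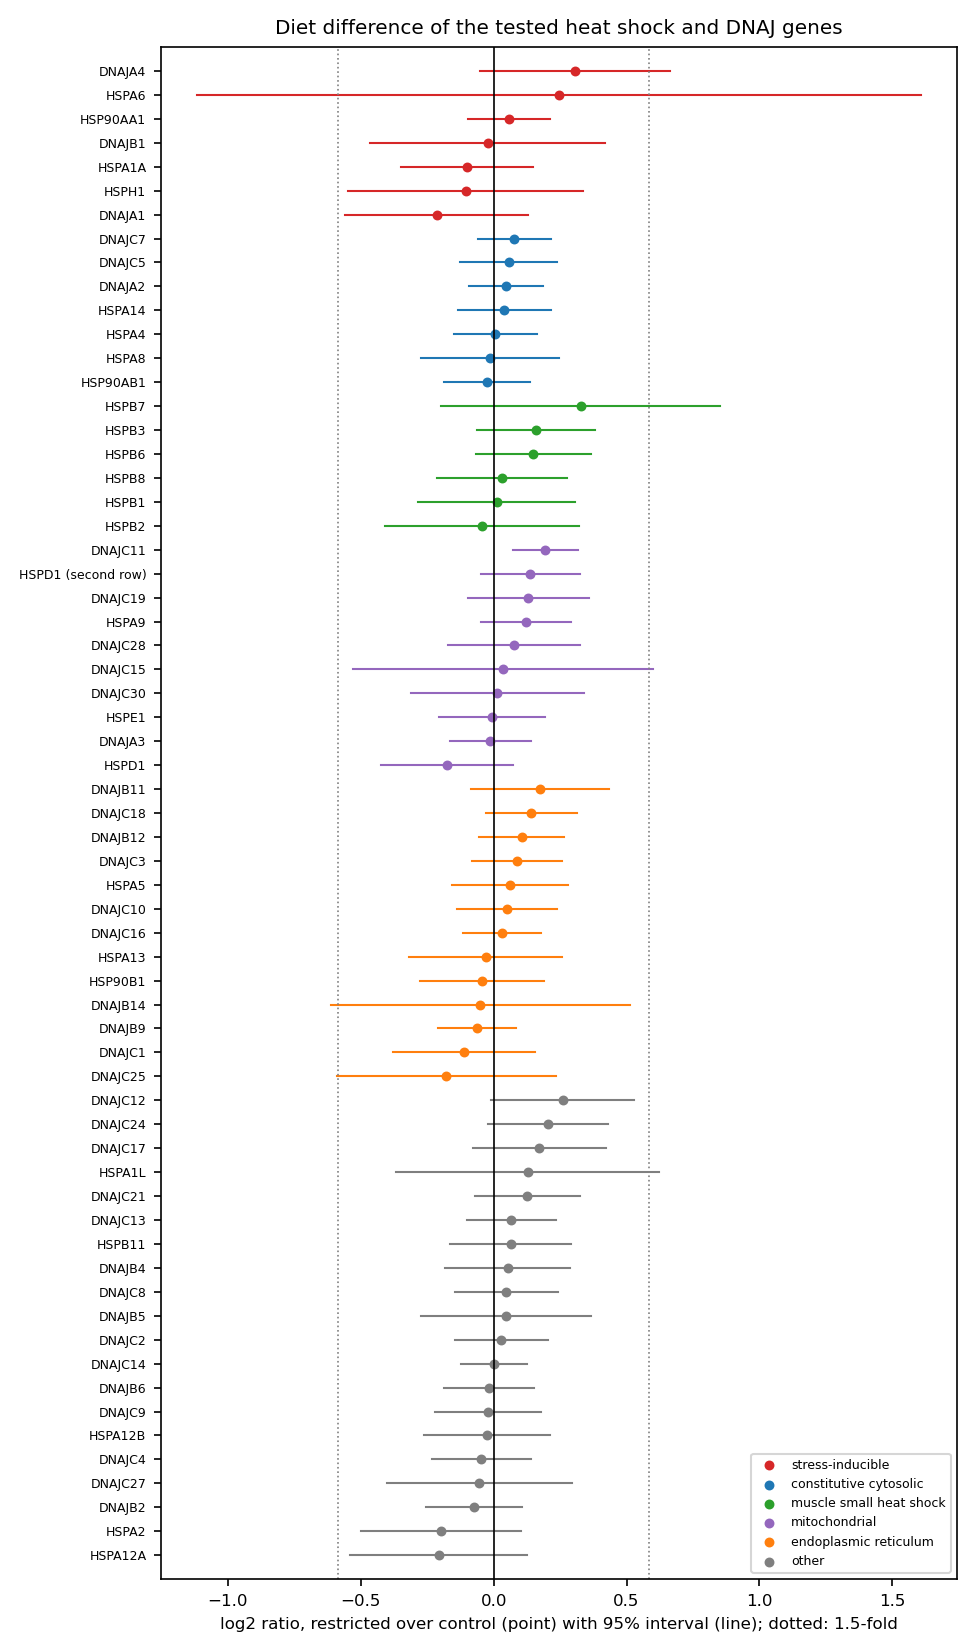
Log2 ratio of restricted over control (point) with its 95% interval (line) for the 63 tested members, grouped by class; dotted lines mark 1.5-fold. The intervals all cross 0 except that of DNAJC11, and that of HSPA6 is the widest.

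The ratio of restricted over control was above 1 for 39 of the 63 members (61.9%) and below 1 for 24. Over all genes tested that share was 49.7%, and over the 1187 genes above 100 CPM it was 61.5%. The median log2 ratio was 0.04 over the members and -0.0008 over all genes. Among the classes it was -0.02 for the stress-inducible genes (3 of 7 above 0) and 0.04 for the constitutive genes (5 of 7). It was 0.09 for the muscle small heat shock genes (5 of 6), 0.06 for the mitochondrial rows (7 of 10), 0.03 for the endoplasmic reticulum genes (7 of 13) and 0.04 for the others (12 of 20). Scaling libraries by their totals alone moved the median of all genes to -0.05 and that of the members to -0.01, a similar shift for both. With it the muscle small heat shock and mitochondrial medians were 0.04 and 0.02, still above 0, while the constitutive, endoplasmic reticulum and other medians were -0.013, -0.018 and -0.0083. Without restricted 4, restricted 7 and control 7, 0 members passed, and the median was 0.07 over the members and 0.10 over the stress-inducible genes. In that fit 3 members had an unadjusted p under 0.05, among 612 of the 12270 genes tested. They were HSPD1 with a log2 ratio of -0.36 (unadjusted p = 0.00368 by edgeR), DNAJC11 with 0.19 (unadjusted p = 0.0164) and DNAJB11 with 0.26 (unadjusted p = 0.0329). The smallest adjusted p among them was 0.937 by edgeR. Smooth muscle markers summed to 86.1 to 144 CPM in restricted animals and 124 to 151 CPM in controls, with ratios below 1 for 5 of 5 genes, and 6 of 7 fibre markers had ratios above 1. Their part in the ratios of the members was not tested, and in whole muscle fewer cells of a type and less RNA per cell cannot be told apart.

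Of the stress-inducible genes, HSPA1A (ENSBTAG00000025441) encodes the major HSP70 made after heat. It ran from 427 to 696 CPM with a median of 602 in restricted animals, and from 505 to 836 CPM with a median of 641 in controls. Both extremes were single animals, restricted 6 at the low end and control 6 at the high end, and the rest of the groups overlapped. The ratio was 0.934 with a 95% interval of 0.786 to 1.11 (unadjusted p = 0.412 by edgeR). Its log2 ratio of -0.10 was -0.03 without restricted 6 and -0.02 without control 6. HSPA1A lies next to HSPA1L in the RefSeq table of the cow genome, and its sequence is close to those of HSPA1L and HSPA6, so reads may have been shared between these genes. No row with reads carried the symbol of its near copy HSPA1B, so that gene could not be analysed. Reads of HSPA1B could be among those counted for HSPA1A or left uncounted.

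HSP90AA1 (ENSBTAG00000006270), the inducible cytosolic HSP90, was at 843 to 1024 CPM with a median of 931 in restricted animals, and at 771 to 1038 CPM with a median of 887 in controls. The restricted animals lay inside the range of the controls, and the ratio was 1.04 (0.935 to 1.16). HSPH1 (ENSBTAG00000005012), the HSP110 that recycles HSP70, was at 28.6 to 69.5 CPM with a median of 40.4 in restricted animals, and at 33.5 to 66.8 CPM with a median of 43.5 in controls. Each group held animals at both ends of this range, and the ratio was 0.929 (0.685 to 1.26). DNAJB1 (ENSBTAG00000016874), the partner of HSP70 in taking aggregates apart, was at 17.4 to 56.5 CPM with a median of 27.1 in restricted animals, and at 25.9 to 45.8 CPM with a median of 31.9 in controls. The highest and the lowest of the 14 animals were both restricted, and the ratio was 0.984 (0.724 to 1.34).

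DNAJA1 (ENSBTAG00000016265), a farnesylated partner of HSP70, was at 35.3 to 75.0 CPM with a median of 52.6 in restricted animals, and at 44.1 to 93.9 CPM with a median of 57.6 in controls, a ratio of 0.862 (0.679 to 1.09). Its log2 ratio of -0.21 was -0.13 without restricted 7, its lowest animal, and -0.09 without control 3, its highest. DNAJA4, of the same subfamily, was at 94.2 to 176 CPM with a median of 127 in restricted animals, and at 58.0 to 124 CPM with a median of 106 in controls. Its ratio of 1.24 (0.965 to 1.58) had an unadjusted p of 0.0890 by edgeR and rested in part on control 7, which alone was under 94.2 CPM. Without that animal its log2 ratio was 0.20, against 0.30 with it. It was 0.37 without restricted 1 (unadjusted p = 0.0438 by edgeR) and 0.37 without restricted 4 (unadjusted p = 0.0460). Over the animals whose titles start with Y it was 0.42 (unadjusted p = 0.0471). The smallest adjusted p of DNAJA4 in these fits was 0.876 by edgeR. HSPA6, an HSP70 gene that is nearly silent without stress in human cells, was at 0.226 to 4.01 CPM with a median of 1.38 in restricted animals, and at 0.210 to 4.83 CPM with a median of 1.21 in controls. These are 3 to 80 reads per animal, and the ratio was 1.19 with an interval of 0.461 to 3.05.

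Of the constitutive genes, HSPA8 (ENSBTAG00000013162) was at 866 to 1439 CPM with a median of 1212 in restricted animals, and at 917 to 1443 CPM with a median of 1216 in controls. The groups covered nearly the same range, and the ratio was 0.991 (0.828 to 1.19). HSP90AB1 (ENSBTAG00000000778), the HSP90 of unstressed cells, was at 341 to 432 CPM with a median of 387 in restricted animals, and at 359 to 459.9 CPM with a median of 383 in controls, a ratio of 0.983 (0.879 to 1.10). HSPA4, an exchange factor for HSP70, was at 164 to 215 CPM with a median of 201 in restricted animals, and at 168 to 211 CPM with a median of 193 in controls. Its ratio was 1.0 (0.903 to 1.12), and the groups covered nearly the same range.

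DNAJA2, a general partner of HSPA8, was at 99.9 to 124 CPM with a median of 105 in restricted animals, and at 94.9 to 115 CPM with a median of 105 in controls, a ratio of 1.03 (0.938 to 1.14). DNAJC7, which binds both HSP70 and HSP90, was at 102 to 125 CPM with a median of 109.6 in restricted animals, and at 95.4 to 116 CPM with a median of 103 in controls, a ratio of 1.06 (0.959 to 1.16). Neither gene separated the groups. DNAJC5, the cysteine string protein of vesicles, was at 34.4 to 45.9 CPM with a median of 42.5 in restricted animals, and at 35.3 to 51.5 CPM with a median of 39.1 in controls, a ratio of 1.04 (0.917 to 1.18). HSPA14, an HSP70 associated with the ribosome, was at 28.3 to 40.1 CPM with a median of 32.3 in restricted animals, and at 27.5 to 36.1 CPM with a median of 33.5 in controls, a ratio of 1.03 (0.911 to 1.16). For all 7 constitutive genes the interval lay within 1.5-fold in both directions.

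**Figure D2:**
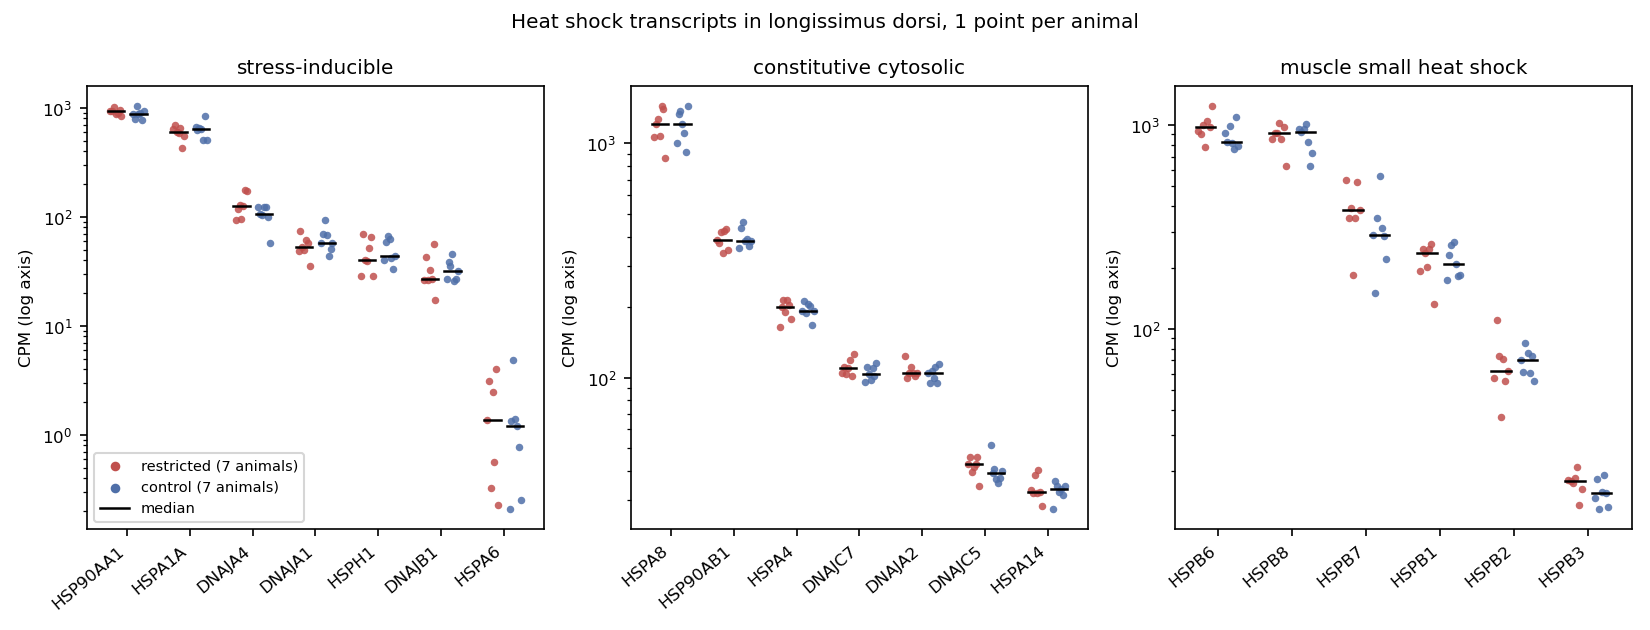
CPM of each animal on a log axis for the stress-inducible, constitutive cytosolic and muscle small heat shock genes, with restricted animals left of controls and a bar at the median of each group. The groups overlap for every gene, and HSPA6 and HSPB7 spread the most within their panels.

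Among the muscle small heat shock genes, HSPB6 (ENSBTAG00000018598) was at 784 to 1238 CPM with a median of 978 in restricted animals, and at 759.6 to 1099 CPM with a median of 826 in controls. Its ratio of 1.11 had an interval of 0.955 to 1.29. Its log2 ratio of 0.15 was 0.08 without restricted 7 and 0.21 without control 6 (unadjusted p = 0.0499 by edgeR). HSPB8 (ENSBTAG00000001303) was at 633 to 1024 CPM with a median of 909 in restricted animals, and at 629 to 1017 CPM with a median of 929 in controls, a ratio of 1.02 (0.862 to 1.21). The 2 groups covered the same range for HSPB8, and most of it for HSPB6. HSPB7 (ENSBTAG00000055045), a small heat shock protein of heart and skeletal muscle that binds filamin, was at 184 to 539 CPM with a median of 382 in restricted animals, and at 150.2 to 562 CPM with a median of 290.2 in controls. The highest animal was control 4 and the lowest control 2, so the control group spanned the restricted one. The ratio was 1.25 (0.872 to 1.80, unadjusted p = 0.206 by edgeR). Without control 4 its log2 ratio was 0.54, against 0.33 with it, with an unadjusted p of 0.0274 and an adjusted p of 1.0 by edgeR. It was 0.21 without control 2 and 0.07 over the animals whose titles start with Y.

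HSPB1, the HSP27 that guards actin filaments, was at 132 to 261 CPM with a median of 235 in restricted animals, and at 173 to 266 CPM with a median of 208 in controls, a ratio of 1.01 (0.822 to 1.24). HSPB2, which binds the myotonic dystrophy kinase, was at 37.1 to 111 CPM with a median of 62.1 in restricted animals, and at 55.6 to 85.1 CPM with a median of 70.3 in controls, a ratio of 0.969 (0.752 to 1.25). Restricted 2 and restricted 4 were its highest and lowest animals. HSPB3, the partner of HSPB2, was at 13.7 to 21.0 CPM with a median of 17.99 in restricted animals, and at 13.1 to 19.3 CPM with a median of 15.7 in controls, a ratio of 1.12 (0.958 to 1.30). HSPB2 lies next to CRYAB, another small heat shock gene, in the RefSeq table. The strand setting of the counting is not given in the sources used here, so reads of overlapping transcripts of these neighbours cannot be told apart.

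In the mitochondria, DNAJC11 (ENSBTAG00000011217), a protein of the complex that shapes the inner membrane folds, had the smallest p of all members. It was at 63.2 to 73.9 CPM with a median of 65.3 in restricted animals, and at 55.1 to 65.0 CPM with a median of 56.4 in controls. Control 4 at 65.0 CPM was the only control inside the restricted range, control 1 lay just under it at 62.0 CPM, and the other 5 controls were between 55.1 and 56.9 CPM. The ratio was 1.14 (1.05 to 1.25), with an unadjusted p of 0.00412 and an adjusted p of 1.0 by edgeR's quasi-likelihood test. HSPA9, which pulls proteins into the matrix, was at 239 to 363 CPM with a median of 278 in restricted animals, and at 242 to 292 CPM with a median of 255 in controls, a ratio of 1.09 (0.967 to 1.22). The high value was restricted 1 alone, and without it the log2 ratio was 0.05, against 0.12 with it. DNAJA3, its DNAJ partner, was at 76.4 to 102 CPM with a median of 93.0 in restricted animals, and at 86.0 to 107 CPM with a median of 89.4 in controls.

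The chaperonin HSPD1 stood on 2 rows that may share reads. The one with more reads (ENSBTAG00000012586) was at 65.5 to 115 CPM with a median of 81.4 in restricted animals, and at 79.6 to 116 CPM with a median of 94.96 in controls, a ratio of 0.885 (0.745 to 1.05). Its log2 ratio of -0.18 was -0.26 without restricted 4 (unadjusted p = 0.0318 by edgeR) and -0.36 without restricted 4, restricted 7 and control 7. The second row (ENSBTAG00000047441) had a ratio of 1.10 (0.966 to 1.25), on the other side of 1. HSPE1, which lies next to HSPD1 in the RefSeq table and caps its chamber, was at 68.5 to 93.9 CPM with a median of 78.4 in restricted animals, and at 70.4 to 104 CPM with a median of 73.8 in controls. DNAJC15, a relative of the import motor, was at 1.93 to 6.68 CPM with a median of 3.60 in restricted animals, and at 2.11 to 6.17 CPM with a median of 3.10 in controls. The other mitochondrial members, DNAJC19, DNAJC28 and DNAJC30, had ratios of 1.09, 1.06 and 1.01.

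In the endoplasmic reticulum, HSPA5 (ENSBTAG00000007662), the HSP70 of that compartment known as BiP, was at 89.0 to 133 CPM with a median of 117 in restricted animals, and at 89.4 to 129.8 CPM with a median of 108 in controls, a ratio of 1.04 (0.898 to 1.21). HSP90B1 (ENSBTAG00000003362), its HSP90, was at 70.4 to 109.7 CPM with a median of 84.3 in restricted animals, and at 72.0 to 106 CPM with a median of 93.9 in controls, a ratio of 0.970 (0.825 to 1.14). The groups shared their ranges for both. DNAJC16 varied little, at 20.9 to 24.1 CPM with a median of 23.3 in restricted animals and 20.1 to 25.1 CPM with a median of 21.8 in controls. DNAJB14 was at 0.583 to 2.15 CPM in restricted animals and at 0.952 to 1.87 CPM in controls, on 9 to 38 reads per animal. The remaining 9 members of this class, among them the BiP partners DNAJB9, DNAJB11, DNAJC3 and DNAJC10, had ratios between 0.883 for DNAJC25 and 1.13 for DNAJB11.

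Of the other genes, DNAJB6, a suppressor of protein aggregation at the Z-disc that is mutated in a limb girdle muscular dystrophy, was at 85.9 to 116 CPM with a median of 102 in restricted animals, and at 80.8 to 111 CPM with a median of 107 in controls, a ratio of 0.988 (0.879 to 1.11). DNAJB4 was at 70.2 to 116 CPM with a median of 87.9 in restricted animals, and at 71.2 to 108 CPM with a median of 86.1 in controls, a ratio of 1.04 (0.880 to 1.22). Both groups covered the same range. DNAJC14 was the steadiest member, at 30.8 to 36.1 CPM in restricted animals and 31.0 to 35.7 CPM in controls. The remaining tested genes of this class had ratios between 0.866 for HSPA12A and 1.197 for DNAJC12, whose unadjusted p of 0.0569 by edgeR was the smallest of the class. The 6 members with too few reads to test were HSPA4L, DNAJC6, DNAJB13, DNAJB7, DNAJC5G and DNAJC22. HSPA4L averaged 8.57 reads per animal and the other 5 between 0.0714 and 2.29.

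The spread between animals is given as the SD of log2 CPM over the 14 animals, with no test. Its median was 0.39 for the stress-inducible genes, 0.26 for the muscle small heat shock genes and 0.13 for the constitutive genes, against 0.23 over all genes tested and 0.16 over genes above 100 CPM. It was 0.20 for the endoplasmic reticulum and mitochondrial rows and 0.19 for the others. Of the stress-inducible genes 6 of 7 lay above the median of all genes, of the muscle small heat shock genes 4 of 6, and of the constitutive genes 1 of 7, which was HSPA8 at 0.24. Within single diet groups the stress-inducible median was 0.36 in restricted animals and 0.36 in controls, and the constitutive median was 0.14 in restricted animals and 0.13 in controls. Without restricted 4, restricted 7 and control 7 the medians were 0.32 for the stress-inducible, 0.22 for the muscle small heat shock and 0.13 for the constitutive genes.

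HSPA6 spread the most, with an SD of 1.33 that exceeded 99.6% of all genes, on 3 to 80 reads per animal. HSPB7 followed at 0.56 and its highest animal had 3.74 times the CPM of its lowest. HSPH1 had an SD of 0.44 and DNAJB1 one of 0.43, larger than 85.05% and 83.9% of all genes. DNAJA4 had an SD of 0.39 and DNAJA1 one of 0.35. The inducible HSP90AA1 went the other way with an SD of 0.12, larger than only 7.95% of all genes, close to 0.13 for the constitutive HSP90AB1. HSPA1A at 0.24 lay near the median of all genes. DNAJC14 at 0.08 and DNAJA2 and DNAJC16 at 0.10 were the steadiest named members.

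**Figure D3:**
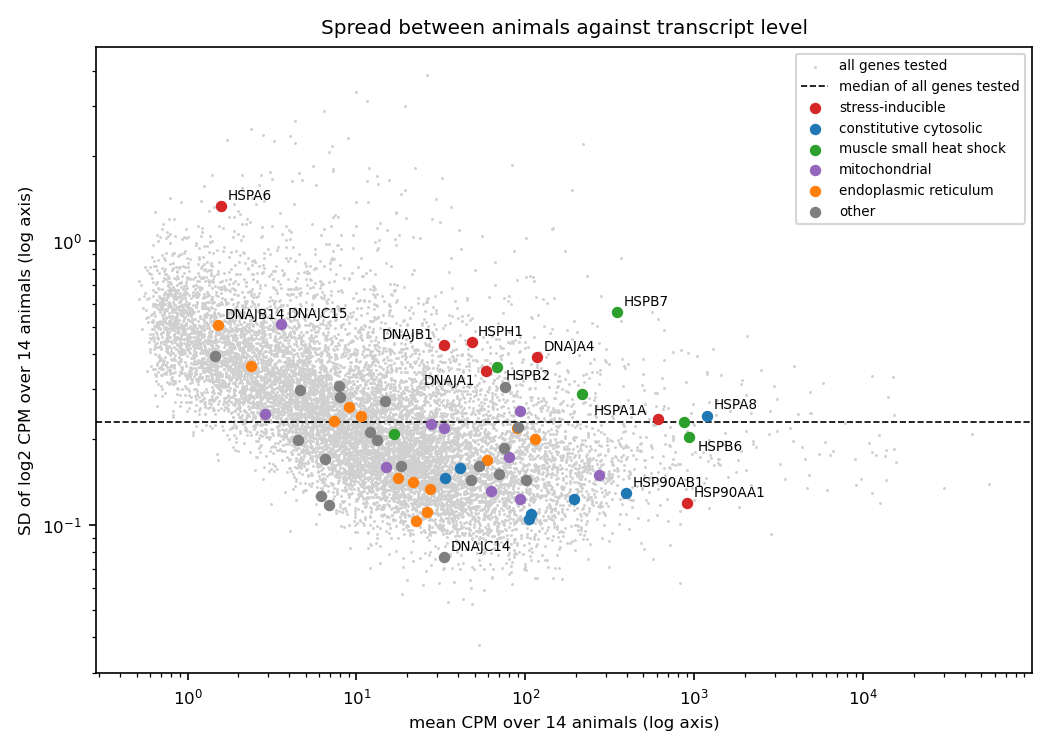
SD of log2 CPM over the 14 animals against mean CPM, both on log axes, for all genes tested (grey) and the members coloured by class; the dashed line is the median of all genes. HSPH1, DNAJB1, DNAJA1 and DNAJA4 lie above the line and HSP90AA1 and the constitutive genes other than HSPA8 below it.

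HSPH1 and other chaperone genes were also compared in pairs over the animals. Over 28 pairs, fixed with earlier results of these data known, Pearson's r of log2 CPM over the 14 animals passed the threshold for 6. The test was a two-sided permutation test with Benjamini-Hochberg adjustment over the 28. The share over pairs of all genes was not computed, so whether this count is particular to chaperone genes was not tested. With 1 animal left out 1 to 5 pairs passed: 1 without restricted 4, restricted 6 or control 5, 2 without restricted 7, and 3 without restricted 5, control 4 or control 6. The closest pair was HSPH1 and DNAJB1, with r = 0.84, Spearman's rho = 0.81, a permutation p of 0.00014 and an adjusted p of 0.00392. Adjusted over all 1891 pairs of members, the same pair had a permutation p of 0.0898 and did not pass, nor did any other. The relation held at r = 0.85 without control 3 and restricted 2, the animals farthest from the median of HSPH1, and at r = 0.84 with values centred on each diet group. It passed the threshold without any 1 animal, with r between 0.80 and 0.87.

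Both genes were highest in animals of either diet. HSPH1 was highest in restricted 2 at 69.5 CPM, followed by control 3 at 66.8, restricted 6 at 65.8 and control 4 at 62.8 CPM. DNAJB1 was highest in restricted 6 at 56.5 CPM, control 4 at 45.8 and restricted 2 at 42.6 CPM. Restricted 7 was the lowest of the 14 animals for HSPH1, DNAJB1, DNAJA1, HSPB1 and HSPA8. This library was one of the 3 that lay farthest out, and without it HSPH1 and DNAJB1 had r = 0.80.

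**Figure D4:**
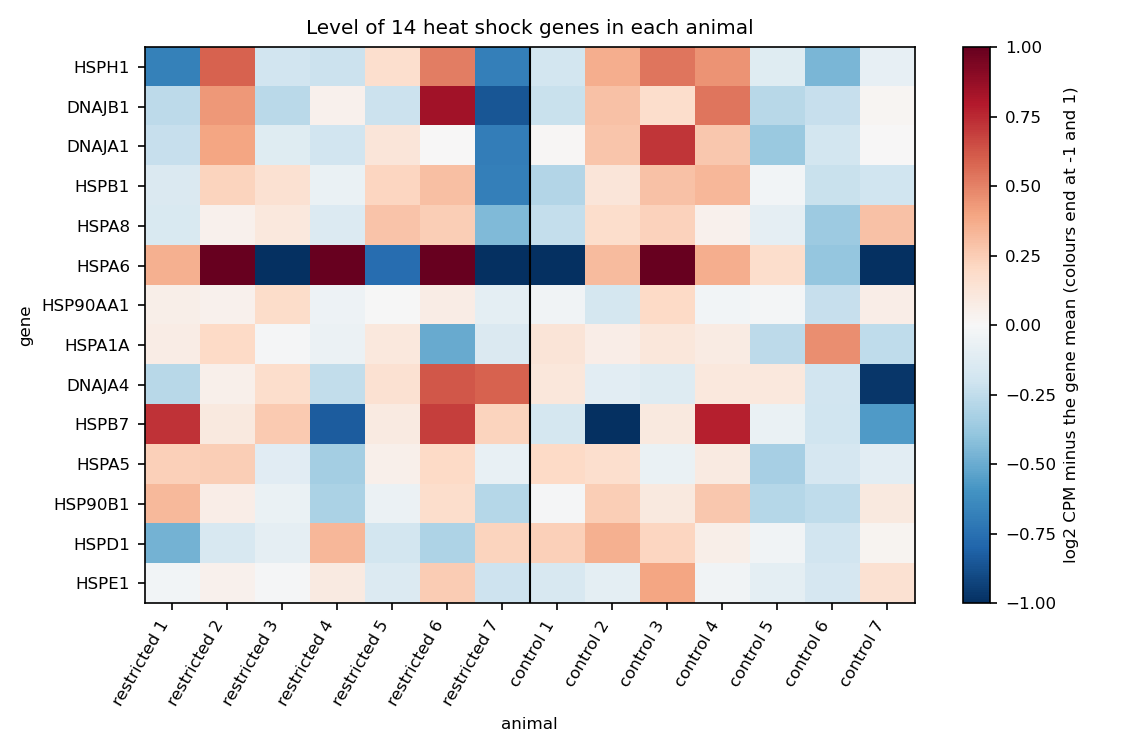
Log2 CPM minus the mean of each gene (colour, ending at -1 and 1) for 14 heat shock genes in the 7 restricted and 7 control animals. The first 5 rows share their blue column in restricted 7, and HSPA1A and DNAJA4 show a different order of animals.

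Among the 28 fixed pairs, HSPH1 with HSPA8 had r = 0.73 (rho = 0.68, adjusted permutation p = 0.0304). HSPH1 with HSPA4 had r = 0.66 (rho = 0.49, adjusted permutation p = 0.0484). HSPA8 with DNAJA1 had r = 0.67 (rho = 0.55, adjusted permutation p = 0.0484). Adjusted over all 1891 pairs of members, the permutation p of these pairs was 0.308, 0.408 and 0.408, and none passed. They were less stable than the first pair. With 1 animal left out at a time they passed in 9, 2 and 4 of 14 cases, and without the 2 animals farthest from the median of HSPA8, control 6 and restricted 7, the last had r = 0.48 (permutation p = 0.112). In the endoplasmic reticulum HSPA5 and HSP90B1 had r = 0.78 (rho = 0.72, adjusted permutation p = 0.0217). This pair was past the threshold in 11 of 14 cases and had r = 0.63 without control 5 and restricted 4. Adjusted over all 1891 pairs, its permutation p was 0.243. HSPB7 with MYH7, the slow myosin heavy chain, had r = 0.66 (rho = 0.49, adjusted permutation p = 0.0484 over the 28 pairs). Without control 2 and restricted 4, the animals farthest from the median of HSPB7, this was r = 0.39 (permutation p = 0.212). Leaving such animals out narrows the range of HSPB7, which by itself can lower r. With 1 animal left out at a time r for HSPB7 and MYH7 lay between 0.52 and 0.79, and 2 of 14 cases passed.

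By Spearman's rho only HSPH1 with DNAJB1 passed (adjusted permutation p = 0.0246). The titles of the samples end in A for 9 animals and in B for 5, with no meaning given. Within the 9 animals r was 0.72 for HSPH1 with DNAJB1 (exact permutation p = 0.0238) and 0.76 for HSPA5 with HSP90B1 (exact permutation p = 0.0195), and 0 of the 28 pairs passed after adjustment. The 5 animals are too few for a correlation.

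HSPA1A did not follow the same animals. Its r was -0.18 with DNAJB1 (adjusted permutation p = 0.634) and -0.09 with HSPH1 (adjusted permutation p = 0.788). Its highest animal, control 6 at 836 CPM, ranked 12 of 14 for HSPH1, and its lowest, restricted 6 at 427 CPM, ranked 1 for DNAJB1. Without these 2 animals the values were 0.45 (permutation p = 0.140) and 0.48 (permutation p = 0.113), on the other side of 0. The constitutive and inducible HSP90 genes had r = 0.47 (adjusted permutation p = 0.206). This was 0.73 without control 2 (adjusted permutation p = 0.0440), 0.30 without control 3 and 0.22 without control 3 and control 6. HSPD1 and HSPE1, neighbours in the genome and partners in 1 complex, had r = -0.02 (adjusted permutation p = 0.950). This holds for the HSPD1 row with more reads, and the second HSPD1 row was not correlated.

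**Figure D5:**
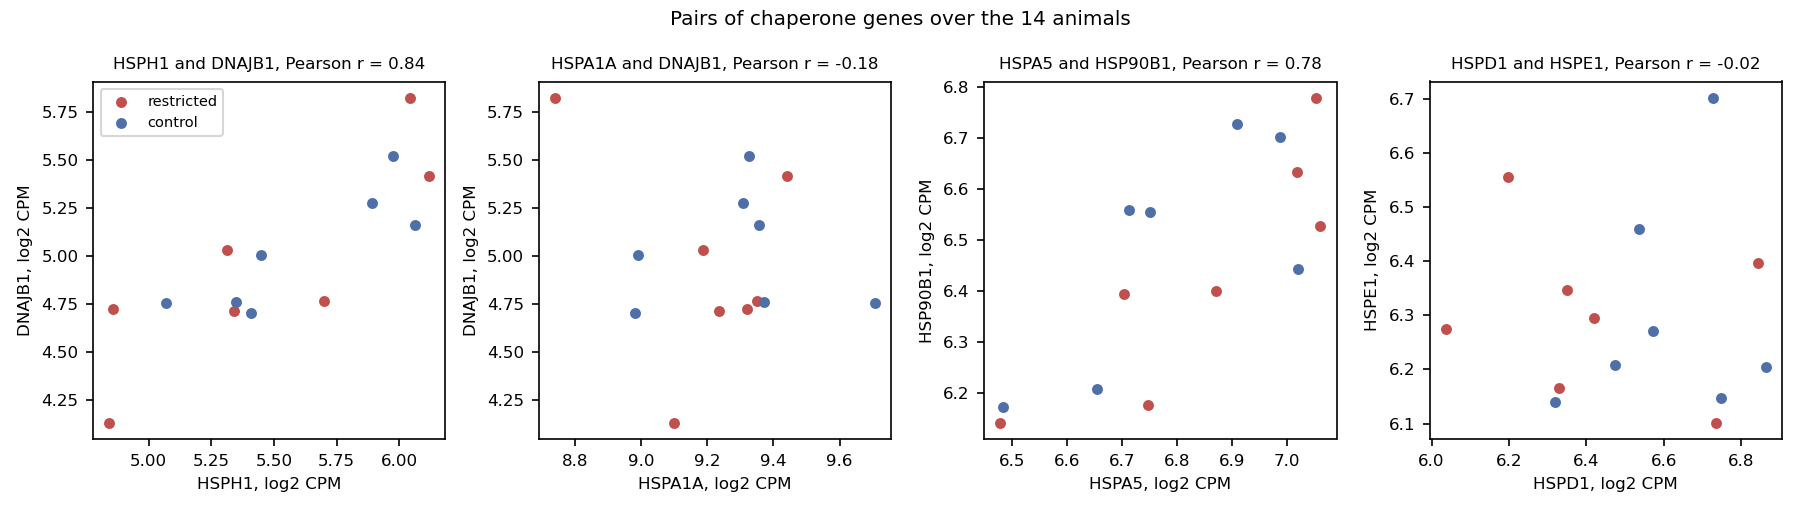
Log2 CPM of 4 pairs of chaperone genes in the 14 animals, restricted in red and control in blue. HSPD1 is shown by its row with more reads. HSPH1 and DNAJB1 and HSPA5 and HSP90B1 rise along a line, while HSPA1A with DNAJB1 and HSPD1 with HSPE1 show no such line.

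Of the immediate early genes, which respond within minutes to handling and stress, FOS did not pass in its pairs. Its r was 0.40 with HSPH1, 0.20 with HSPA1A and 0.18 with DNAJB1 (adjusted permutation p = 0.267, 0.632 and 0.634). For HSPA1A it was 0.49 without control 6, 0.04 without control 7, and 0.62 without control 6 and restricted 6 (permutation p = 0.0312, adjusted p = 0.125). The summed level of the 8 immediate early genes was 332 to 671 CPM in restricted animals and 253 to 838 CPM in controls.

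Of 33 regulators, co-chaperones and partners that are not members, 31 were tested. By edgeR 0 passed the adjusted threshold, with ratios above 1 for 13 and below 1 for 18, against 49.7% of all genes above 1. At an unadjusted p under 0.05 there was 1, against 4.25% of all genes, so the count was no higher than over the whole table. It was HSF4, a heat shock factor best known from the lens, at 12.4 to 21.9 CPM with a median of 18.4 in restricted animals and 14.4 to 25.9 CPM with a median of 23.2 in controls, a ratio of 0.822 (0.677 to 0.999). HSF1, the main switch of the inducible genes, was at 96.8 to 143 CPM in restricted animals and 103 to 146 CPM in controls, a ratio of 0.982 (0.852 to 1.13). BAG3, the partner of HSPB8, had a ratio of 1.02 (0.902 to 1.16), and CRYAB one of 1.01 (0.825 to 1.23). UNC45B and SMYD1, which serve with HSP90 in the folding of myosin, each had a ratio of 1.10, with intervals of 0.876 to 1.38 and 0.986 to 1.23. FKBP5, an HSP90 partner induced by glucocorticoids, spread the most with an SD of 1.11, and lay between 42.5 and 383 CPM in restricted animals and between 38.4 and 291 CPM in controls.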

How the data were processed

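RNA of 14 animals (7 restricted, 7 control) was sequenced. The authors deposited raw read counts per gene with a gene length for each row, which is the other column used here. Per the submitters' processing notes, FastQC, HISAT2, featureCounts and edgeR were used with the build ARS-UCD1.2. Their versions, the strand setting and the handling of multiply aligned reads are not known here. The first and last letters of the sample titles (R or Y, A or B) have no stated meaning. Replicate numbers are in the order of deposit and only name an animal.

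The test was run in edgeR 4.0.16 (R 4.3.3): filterByExpr (minimum count 10, minimum total 15), TMM scaling, and the quasi-likelihood F test, restricted over control, without covariates, adjusted by Benjamini-Hochberg over all 12187 genes tested. The script was tested on simulated data. Intervals are 95% intervals of that fit. Log2 CPM used a prior count of 2. Correlations used permutation tests with 100000 resamples, exact over 9 animals, run in numpy 2.4.6 with ranks from scipy 1.17.1. For HSPD1 they used only the row with more reads. Alternatives were DESeq2 1.42.0, limma 3.58.1, other scalings, filters, covariates and subsets of animals. No library was a copy of another (chi-square per degree of freedom at least 12.8 for each pair).

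The members, classes, pairs and lists were chosen with earlier results of these data known. Named with both groups' values were all tested inducible, constitutive and muscle small heat shock genes and members with an unadjusted p under 0.05. So were the 4 members with the largest and the 2 with the smallest SD. The rule also named the 2 members with the highest mean CPM of each other class, among DNAJ genes only in the class of others. HSPD1, HSPE1, HSF4, UNC45B, SMYD1, FKBP5, DNAJC12 and members named only by ratio were added after their values were seen. Neighbouring genes were read from the RefSeq table of ARS-UCD2.0, in which 67 of 68 member symbols were found. Its build differs, so no coordinates are given.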

Additional observations from a re-analysis of the deposited data

Results flagged for a closer look

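In each diet group of 7 animals, the highest and the lowest CPM of the 31 named members were compared with the other 6 animals by Dixon's test. Of the 62 groups examined 4 held an animal that stood apart, where chance alone gives about 1 in 20. For HSPA9 it was restricted 1 at 363 CPM, with the other restricted animals between 239 and 283 CPM. Control 1 stood apart for DNAJC5 at 51.5 CPM, with the other controls between 35.3 and 40.8 CPM. DNAJA4 was at 58.0 CPM in control 7, with the other controls between 100.1 and 124 CPM. HSPA6 was at 4.83 CPM in control 3, with the other controls between 0.210 and 1.39 CPM, on 80 reads. These are 4 different animals, and control 7 was among the 3 libraries farthest out on the principal components.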

How the results depend on the processing

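Of the tested members 0 passed the adjusted threshold in each of the alternatives run. Over all genes DESeq2 and the fit of only titles ending in A each called 1 gene, not a member, and the others called 0. At an unadjusted p under 0.05 there were 416 to 869 genes over all alternatives and 1 to 5 members, also 1 to 5 members with 1 animal left out at a time. DNAJC11 was among them in each of the 26 fits, with p between 0.000985 and 0.0462 and adjusted p between 0.741 and 1.0. The number of fixed pairs past the threshold was 6 over all animals, 0 in only titles ending in A and 1 to 5 with 1 animal left out. Of the 31 named members 12 kept the sign of their diet ratio in every fit, and the log2 ratios of the others crossed 0. With scaling by library totals, HSPA4 was at -0.046, HSPA14 -0.013, DNAJC16 -0.018, HSPB8 -0.025, HSPB1 -0.046 and DNAJC14 -0.049. With a filter of a mean of 50 counts, DNAJC14 was at -0.0018. With limma voom, HSPA8 was at 0.040, HSP90AB1 0.0090, DNAJC15 -0.0044 and DNAJB6 0.0085. With the last title letter as a covariate, DNAJA3 was at 0.0036. With the first title letter as a covariate, HSPA4 was at -0.0028 and HSPB1 -0.011. With only titles ending in A, HSPA8 was at 0.15, HSP90AB1 0.044, DNAJA2 -0.015, HSP90B1 0.0050, DNAJA3 0.016, DNAJC15 -0.27, HSPH1 0.12 and DNAJB1 0.27. With only titles starting with Y, DNAJA2 was at -0.015, DNAJB14 0.15 and DNAJB1 0.016. With restricted 4, restricted 7 and control 7 left out (added after the data were seen), HSPA8 was at 0.14, HSP90AB1 0.031, HSP90B1 0.069, DNAJC16 -0.0070, DNAJA3 0.0072, DNAJC15 -0.16, HSPB2 0.050, DNAJB6 0.029, HSPH1 0.0092 and DNAJB1 0.10. With 1 animal left out the log2 ratios that crossed 0 ran over these ranges: HSPA8 -0.069 to 0.050, DNAJB14 -0.17 to 0.086, DNAJB1 -0.21 to 0.086, HSPA4 -0.026 to 0.044, HSPB1 -0.038 to 0.10, DNAJC14 -0.019 to 0.022, HSP90AB1 -0.050 to 0.015, HSP90B1 -0.11 to 0.0020, HSPB8 -0.034 to 0.10, HSPB2 -0.21 to 0.057, HSPA14 -0.0061 to 0.079, DNAJB6 -0.065 to 0.016, DNAJB4 -0.011 to 0.11, HSPA6 -0.12 to 0.97, DNAJA3 -0.039 to 0.028 and DNAJC15 -0.19 to 0.22. Among the correlations some values of r crossed 0. With scaling by library totals, HSPA1A with HSPH1 was at 0.0082 and HSPD1 with HSPE1 0.069. With only titles ending in A, HSPD1 with HSPE1 was at 0.19, HSPD1 with HSPA9 0.25 and DNAJB1 with FOS -0.13. With the 2 animals farthest from the median left out, HSPA1A with DNAJB1 was at 0.45, HSPA1A with HSPH1 0.48, HSPD1 with HSPE1 0.024, HSPD1 with HSPA9 0.34 and HSPB1 with MYH7 0.046. With 1 animal left out the ranges of r that crossed 0 were HSPD1 with HSPA9 -0.50 to 0.10, HSPB6 with CRYAB -0.024 to 0.27, HSPA1A with DNAJB1 -0.35 to 0.25, HSPA1A with HSPH1 -0.21 to 0.15, HSPD1 with HSPE1 -0.25 to 0.15 and HSPB1 with MYH7 -0.20 to 0.029. The cause of these moves was not tested.

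No paired analysis was possible because the replicate numbers were given in the order of deposit and link no animals. The search for heat shock elements in promoters was not run, as promoter sequences were not used here. The 6 members not tested had too few reads. HSPA6, HSPA1L, DNAJB14, DNAJC15 and DNAJC25 averaged 22.6 to 57.4 reads per animal and had intervals that include a 1.5-fold ratio, as had HSPB7 and DNAJA4 at many more reads. Counts of HSPA1A, HSPA1L, HSPA6 and the 2 HSPD1 rows may share reads.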

Other observations

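All 1891 pairs of the 62 tested member symbols were also correlated over the 14 animals, an analysis added after the data were seen. After adjustment over all of them 0 pairs passed by Pearson's r or by Spearman's rho, with smallest adjusted permutation p-values of 0.0898 and 0.359. At an unadjusted p under 0.05 there were 144 pairs (7.62%) by Pearson's r. The same share over pairs of all genes was not computed, so this one has no reference beside it. The 4 highest values of r were 0.86 for DNAJA2 with HSPA9, and 0.84 for HSPH1 with each of HSPB1, DNAJB1 and DNAJA1. Restricted 1 was the highest animal for both DNAJA2, at 124 CPM, and HSPA9, at 363 CPM. For DNAJA2 with HSPA9 rho was 0.78, and r without restricted 1 was not computed. DNAJC28, a mitochondrial DNAJ gene, had r = -0.76 with HSPH1 (rho = -0.60, adjusted permutation p = 0.247). With DNAJB1 it had r = -0.72 (rho = -0.72, adjusted permutation p = 0.325). Restricted 1 and restricted 7 were the highest animals for DNAJC28, at 37.5 and 35.0 CPM. They were also the lowest for HSPH1, at 28.9 and 28.6 CPM, and r without them was not computed. The median r over the pairs was 0.20 within the stress-inducible genes (21 pairs), 0.08 within the constitutive genes (21 pairs) and 0.03 over all pairs. It was 0.14 within the endoplasmic reticulum genes, 0.10 within the mitochondrial, 0.05 within the muscle small heat shock and 0.01 within the other genes. Between the stress-inducible genes and the constitutive genes it was 0.16, and with the muscle small heat shock genes 0.14. With the endoplasmic reticulum, other and mitochondrial genes it was 0.07, -0.05 and -0.07.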
